A study of Saccharomyces cerevisiae with 103 samples.

Results

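The regulators of meiotic entry IME1 (YJR094C), IME2 (YJL106W), RME1 (YGR044C), UME6 (YDR207C), RIM11 (YMR139W) and RIM15 (YFL033C) of budding yeast were followed by name through RNA-seq counts, poly(A) tag counts and poly(A) tail lengths. They are 6 of the 6692 genes in the deposited tables, and all 6 were found there. They were chosen by name rather than by a threshold on any measured value. The cells were SK1, a strain that sporulates rapidly and synchronously, sampled in 50 RNA-seq libraries, 50 poly(A) tag libraries and 3 RNA-seq libraries whose RNA was fragmented before adapter ligation. In the sporulation time course, wild-type cells were sampled hourly from 0 to 9 h after resuspension in sporulation medium (SPO), with 2 libraries per hour and assay. In the return to growth, wild-type cells that had spent 1 h or 7 h in SPO were moved into rich glucose medium (YPD). Samples were taken just before the move (0 min) and 5 and 20 min later, with 2 libraries per group. A mutant series held wild type and the homozygous deletions ccr4Δ/Δ, pop2Δ/Δ and xrn1Δ/Δ, each as vegetative cells growing in YPD, as premeiotic cells from acetate presporulation medium and after 5 h in SPO, with 1 library each. A degron-Xrn1 strain growing in YPD was sampled before (0 min) and 30 min after addition of 500 µM auxin (IAA) with 50 µM CuSO4. A pCup1-Ccr4 strain, in which the copper-inducible CUP1 promoter drives CCR4, was sampled before (0 min) and 60 min after 50 µM CuSO4. Each of those had 1 wild-type control library. The labels do not state the number of clones behind a strain.

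Ime1 is the transcription factor that switches the early meiotic genes on, and it is made when glucose and nitrogen are scarce and both mating-type loci are present. It has no strong DNA-binding activity of its own and acts through Ume6, a zinc-cluster protein that sits on the URS1 element and represses early meiotic genes in growing cells. The kinases Rim11, of the glycogen synthase kinase 3 family, and Rim15, which is restrained by nutrient signalling, promote the joining of Ime1 to Ume6. IME2 is an early target of Ime1 and encodes a meiosis-specific kinase that carries the programme forward and limits IME1. Rme1 is a zinc-finger repressor of IME1 in haploid cells and is itself repressed in a/α diploids. Within the Ccr4-Not complex, Ccr4 and Pop2 (Caf1) remove adenosines from mRNA tails, and Xrn1 digests mRNA from the 5′ end once its cap has been taken off.

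In the R64 reference annotation of strain S288C each of the 6 genes has 1 coding exon and overlaps 0 other annotated genes. IME1 lies on chromosome X at 604569 to 605651 on the minus strand and IME2 on chromosome X at 221390 to 223327 on the plus strand. RME1 lies on chromosome VII at 582990 to 583892 (minus), UME6 on chromosome IV at 865012 to 867522 (minus), RIM11 on chromosome XIII at 546125 to 547237 (plus) and RIM15 on chromosome VI at 69115 to 74427 (minus). The nearest annotated gene upstream of IME1 is IRT1, a noncoding RNA gene on the same strand that is known to run across the IME1 promoter. It lies 284 bases away and was not analysed here. The upstream stretches below are shown because they hold the elements through which these regulators are known to act on one another. They are S288C reference sequence, so SK1 may differ from them.

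The core of URS1, GGCGGC searched on both strands within 600 bases of the start codon, occurred upstream of IME2, UME6 and RME1 and not of the other 3 genes. It occurred in 682 of 6002 windows of that length in the genome (11.4%). Capitals mark the core, which reads GCCGCC where it lies on the opposite strand. IME2 has one copy with its first base 550 and another 455 bases before the start codon.
IME2 chromosome X:220790-220989 (plus): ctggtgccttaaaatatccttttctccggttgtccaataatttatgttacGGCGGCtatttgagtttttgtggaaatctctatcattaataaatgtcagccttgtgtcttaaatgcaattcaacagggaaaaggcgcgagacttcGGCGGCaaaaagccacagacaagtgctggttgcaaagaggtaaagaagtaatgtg
UME6 chromosome IV:867923-867992 (minus): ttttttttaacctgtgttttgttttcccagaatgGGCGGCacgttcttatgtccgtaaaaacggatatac
UME6 chromosome IV:867622-867691 (minus): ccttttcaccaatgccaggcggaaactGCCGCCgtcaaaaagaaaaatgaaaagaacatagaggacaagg
RME1 chromosome VII:584273-584342 (minus): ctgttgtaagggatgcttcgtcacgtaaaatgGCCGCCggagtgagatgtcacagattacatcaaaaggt

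The letters ACCTCAANA, a form of the site bound by Rme1, were searched on both strands within 2500 bases and occurred upstream of 638 of the same 6002 genes (10.6%). Of the 6 regulators IME1 alone had a match. Its 2 matches start 2038 and 1957 bases before its start codon and are in capitals.
IME1 chromosome X:607572-607721 (minus): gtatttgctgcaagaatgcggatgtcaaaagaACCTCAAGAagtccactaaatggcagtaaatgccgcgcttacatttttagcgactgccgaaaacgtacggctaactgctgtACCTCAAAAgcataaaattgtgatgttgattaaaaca

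A match describes the letters in a window and is not evidence of binding. Of 20 early meiotic genes used below as targets of the Ime1 and Ume6 switch, 14 (70%) held the URS1 core in the 600-base window. The core was found upstream of 3 of 17 genes of the Ras and protein kinase A pathway, 2 of 12 partner kinases and substrates, and 0 of the Rim101 pathway, corepressor and haploid-specific genes.

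RNA-seq libraries held 364038 to 3821895 counts in the sporulation time course, 132594 to 4689131 in the return to growth and 178152 to 4583279 in the strain comparisons, and tag libraries held 71930 to 8926553. The shallowest RNA-seq library, at 132594 counts, was replicate 2 of the cells taken after 7 h in SPO before transfer. Deleted genes matched the strain labels in RNA-seq: counts for CCR4 in the ccr4Δ/Δ libraries were 0, 1 and 0, for POP2 in pop2Δ/Δ 0, 0 and 0, and for XRN1 in xrn1Δ/Δ 2, 1 and 1. In the tag libraries the deleted genes were lower than in wild type but not at 0, at 1.96 to 16.9 CPM for CCR4 (wild type 125 to 193), 10.8 to 13.3 CPM for POP2 (43.8 to 82.1) and 1.05 to 2.11 CPM for XRN1 (115 to 225). Nothing in the labels says that replicate libraries came from separate cultures. Their p-values therefore cover just the spread between these libraries, which may be technical. Levels are CPM, the counts relative to library depth, scaled between libraries by edgeR's TMM factors. Levels summed over a gene list are the exception: they are relative to library depth alone, without those factors. Since a library is sampled to its depth, fewer cells of a kind and less RNA per cell cannot be told apart.

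IME1 RNA was already high when cells entered SPO, had its highest mean at 4 h and by 7 h no longer passed the test against 0 h. Its libraries held 822 and 998 CPM at 0 h, 989 and 1191 at 1 h, 1498 and 1903 at 2 h, 1579 and 1970 at 3 h, and 1611 and 2168 at 4 h. They then held 1464 and 1639 CPM at 5 h, 1287 and 1274 at 6 h, 981 and 903 at 7 h, 724 and 781 at 8 h, and 687 and 550 at 9 h. All libraries from 2 to 6 h lay above both 0 h libraries, and both 9 h libraries lay below them. Against 0 h the log2 fold change was 0.90 at 2 h (edgeR adjusted p = 1.61e-05) and 1.05 at 4 h (SE 0.16, edgeR adjusted p = 1.53e-06). At 1 h it was 0.26 and did not pass the test (edgeR adjusted p = 0.16), nor did the values at 7 and 8 h. By 9 h IME1 had fallen below its level at 0 h, by 0.56 on the log2 scale (SE 0.16, edgeR adjusted p = 0.00365).

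**Figure D1:**
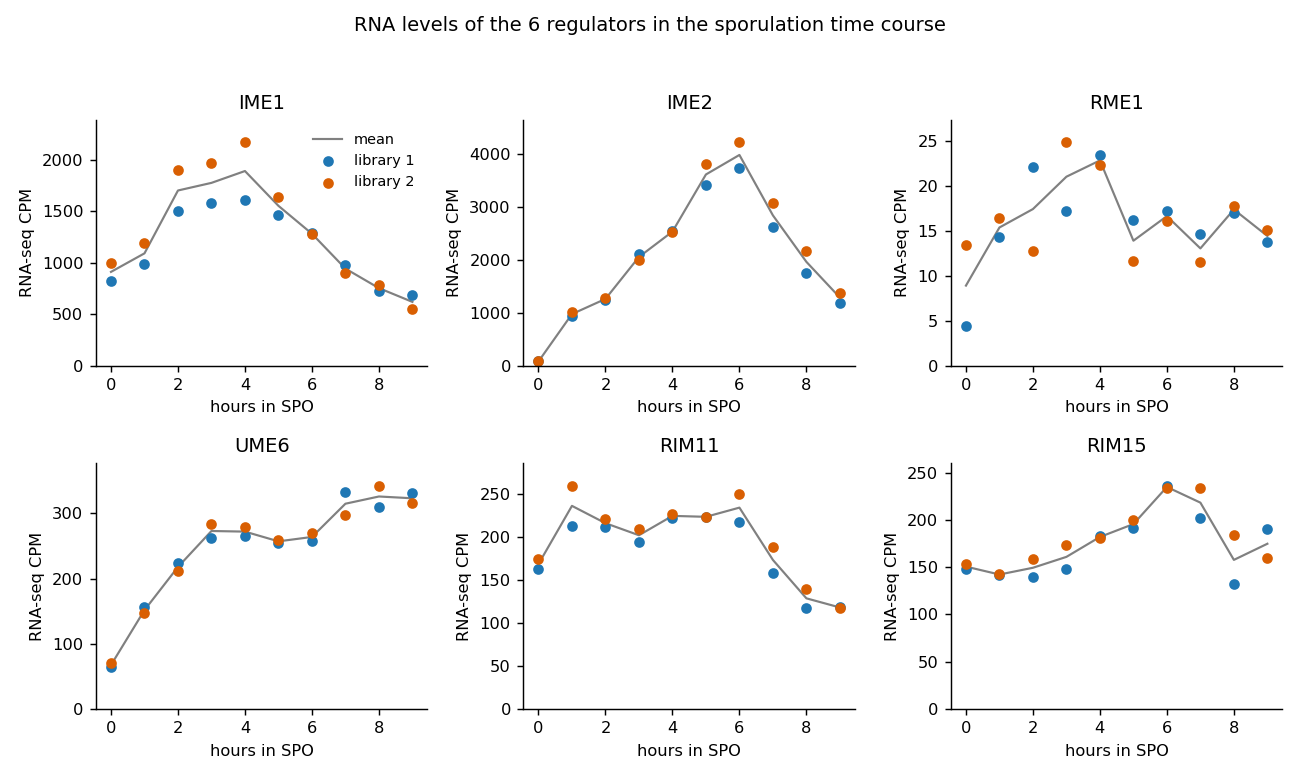
RNA-seq level (CPM, linear axis from 0) of each of the 6 regulators against hours in SPO. Points are the 2 libraries of each hour and the line joins their means. The mean of IME1 is highest at 4 h and that of IME2 at 6 h, where it is 3980 CPM against 77.8 at 0 h.

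IME2, the kinase gene that Ime1 activates, moved furthest of the 6, and its highest mean came later than that of IME1. It went from 77.6 and 78.0 CPM at 0 h to 928 and 1018 at 1 h, 1238 and 1281 at 2 h, 2108 and 1997 at 3 h, and 2540 and 2523 at 4 h. It reached 3421 and 3801 CPM at 5 h and 3742 and 4218 at 6 h, and then stood at 2613 and 3064 at 7 h, 1753 and 2167 at 8 h and 1189 and 1381 at 9 h. No library after 0 h overlapped the 0 h pair, and the libraries at 5 and 6 h were the highest. The log2 fold change against 0 h was already 3.64 at 1 h (SE 0.14, edgeR adjusted p = 6.18e-18), when the change in IME1 did not pass the test. It was 5.68 at 6 h (SE 0.16, edgeR adjusted p = 4.57e-21) and still 4.05 at 9 h (edgeR adjusted p = 7.8e-19).

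Steps between neighbouring hours bounded the high period of both genes but did not place their maxima. For IME1 no step between 2 and 6 h passed the test (edgeR adjusted p = 0.834, 0.803, 0.267 and 0.187). The step of IME2 from 5 to 6 h did not pass either (edgeR adjusted p = 0.422). IME1 rose from 1 to 2 h by 0.64 on the log2 scale (edgeR adjusted p = 0.00479) and fell from 6 to 7 h by 0.44 (edgeR adjusted p = 0.0326). IME2 rose at the steps from 1 to 2 h, 2 to 3 h and 4 to 5 h, by 0.37, 0.70 and 0.51 on the log2 scale. It fell by 0.49 from 6 to 7 h (edgeR adjusted p = 0.00459) and by 0.53 from 7 to 8 h (edgeR adjusted p = 0.0078). From 1 to 2 h 3 of the 6 regulators rose (IME1, IME2 and UME6), against 9.44% of all genes, and from 6 to 7 h 3 fell (IME1, IME2 and RIM11), against 17.4%. The maxima of the means were at 4 h for IME1 and at 6 h for IME2. The 4 h libraries of IME1 overlapped those at 2, 3 and 5 h, and the 5 h and 6 h libraries of IME2 overlapped.

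UME6, which encodes the URS1-binding protein, rose early and stayed up. Its libraries held 63.5 and 70.8 CPM at 0 h, 156 and 147 at 1 h, 225 and 211 at 2 h and 262 and 285 at 3 h. From 4 to 6 h they lay between 255 and 280 CPM, and from 7 to 9 h between 297 and 343. Every later library lay above the 0 h pair. The log2 fold change was 1.17 at 1 h (SE 0.13, edgeR adjusted p = 6.12e-09), 2.02 at 3 h and 2.28 at 8 h (SE 0.13, edgeR adjusted p = 2.01e-15).

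The 2 kinase genes upstream of the Ime1 and Ume6 complex moved little by comparison. RIM11 held 163 and 174 CPM at 0 h and 213 and 260 at 1 h, a rise of 0.49 on the log2 scale (SE 0.13, edgeR adjusted p = 0.00138). It stayed between 194 and 251 CPM from 2 to 6 h and then fell, to 119 and 117 CPM at 9 h, 0.52 below 0 h on the log2 scale (SE 0.16, edgeR adjusted p = 0.00552). RIM11 libraries at 9 h did not overlap those at 0 h. RIM15 held 148 and 153 CPM at 0 h and 142 and 143 at 1 h, which did not pass the test. It reached 237 and 234 CPM at 6 h, a rise of 0.64 on the log2 scale (SE 0.13, edgeR adjusted p = 9.15e-05), and its 190 and 159 CPM at 9 h did not pass the test against 0 h.

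RME1, the haploid repressor of IME1, was scarce throughout, at 5 to 113 RNA-seq counts per library. It held 4.36 and 13.4 CPM at 0 h, from 9 and 26 counts, and between 11.5 and 24.8 CPM afterwards. Its later libraries overlapped the higher 0 h library at 2, 5 and 7 h. RME1 passed the test at 2, 3, 4, 6 and 8 h, with the largest log2 fold change, 1.38, at 4 h (SE 0.34, edgeR adjusted p = 0.000917). Its test over all hours, edgeR adjusted p = 0.0268, became 0.135 without replicate 1 of 0 h, the library of 9 counts. Without replicate 2 of 0 h the values at 1, 5 and 9 h, reported above as not passing (0.82, 0.75 and 0.73), were 1.81, 1.74 and 1.72 and passed (edgeR adjusted p = 0.00351, 0.00544 and 0.0198).

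These counts stood on a transcriptome in which most genes moved. At 1 h, 3 of the 6 regulators (IME2, UME6 and RIM11) had risen and 0 had fallen, against 28.3% of all genes tested that rose and 57.4% that changed in either direction. At 5 h, 5 had risen against 29.9% of all genes (RME1 did not pass), and at 6 h all 6 had risen against 34.8%. At 9 h IME2 and UME6 were above 0 h, against 28.5% of all genes, and IME1 and RIM11 were below it, against 34.2%. In the test over all hours each of the 6 passed, as did 95% of the 6269 genes tested, so that count does not set them apart. Without replicate 1 of 0 h the count at 5 h was 3, with RIM11 and RIM15 no longer past the threshold, and without replicate 2 of 9 h the count at 9 h was 2, with IME1 and RIM11 no longer past it.

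The 20 early meiotic genes code for recombination and chromosome-axis proteins, such as the axis protein Hop1 and the double-strand-break enzyme Spo11. They had risen by 1 h, as IME2 had. Their summed level was 330 and 368 CPM at 0 h and 3817 and 4112 at 1 h. It reached 13410 and 13920 CPM at 4 h and was down to 5111 and 5396 at 6 h. These sums lack the TMM factors that scale IME2, so the hour of their maximum was not compared with that of IME2. All 20 had risen at 1 h (median log2 fold change 3.44, against 0.02 over all genes) and at 5 h (5.18, against -0.11), and 18 were still up at 9 h. HOP1 rose from a mean of 22.7 to 484 CPM by 1 h (log2 4.41) and SPO11 from 2.75 to 222 CPM by 5 h (log2 6.32). HED1, a meiotic recombination gene, rose by 4.29 on the log2 scale at 1 h and by 6.28 at 5 h.

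Genes that act above IME1 did not move as 1 group. Of 17 Ras and protein kinase A genes, which relay glucose, 4 rose and 3 fell at 1 h and 3 rose and 5 fell at 5 h. The GTPase gene RAS2 fell by 1.35 on the log2 scale at 1 h and by 3.30 at 5 h, the phosphodiesterase gene PDE2 fell by 1.46 at 1 h and the G-protein gene GPA2 by 1.72 at 5 h. Of 8 genes of the Rim101 pH-sensing pathway, 1 rose (SNF7) and 1 fell (RIM8) at 1 h, and at 5 h 1 rose and 2 fell (RIM8 and RIM20). Of 14 corepressor genes, 0 rose and 3 fell at 1 h, SDS3 and ASH1 among them, and 3 rose and 4 fell at 5 h, when CYC8 had risen by 1.89. Of 12 partner kinases and substrates, 4 rose and 1 fell at 1 h, when IGO2, a target of Rim15, had risen by 1.45. At 5 h 5 had risen and 3 had fallen, with YGK3 up by 1.69 and SNF4 down, at -1.26.

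The 12 genes of the haploid-specific list, kept low in a/α diploids, were followed as markers of cells that are not a/α. At 1 h 5 had risen and 0 had fallen, and at 5 h 9 had risen and 1 had fallen, with a median log2 fold change of 1.93 against -0.11 over all genes. FUS3, a kinase of the mating pathway, rose from 15.3 to 80.7 CPM by 1 h. MFA1 and NEJ1 rose by 3.78 and 3.43 on the log2 scale at 5 h (SE 0.56 and 0.55), to means of 21.1 and 19.2 CPM. Their 0 h means, 1.46 and 1.71 CPM, were near the level of 3 counts in those libraries (1.45 and 1.55 CPM), so the size of these rises is uncertain. Summed over the list, the level went from between 139 and 143 CPM at 0 h to between 790 and 819 at 7 h, and its part in the values of RME1 or IME1 was not tested.

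By shape over the 10 hours, the profiles nearest to that of IME1 among 5862 genes were NUP2 (Pearson r = 0.987 between hour means of log2 CPM), SGM1 (0.985) and MEF2 (0.981). Nearest to IME2 were PHO92 (0.995), whose protein reads methylated adenosines in mRNA, CDC4 (0.993) and LDO16 (0.992). Nearest to RME1 were YGL072C (0.901), APL4 (0.899) and SUL1 (0.896). Within the 6, IME1 was most like RIM11 (0.84) and IME2 most like UME6 (0.898), whereas IME1 and IME2 gave 0.326. These values describe the 10 time points, which share libraries across genes.

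Poly(A) tags, a separate library preparation counted on far fewer molecules per library, gave the same rise of IME2. Its tag level was 89.3 and 104 CPM at 0 h, 1669 and 1390 at 1 h, 8010 and 5560 at 5 h, 9786 and 6395 at 6 h and 2185 and 1901 at 9 h. No later library overlapped the 0 h pair, and the log2 fold change was 3.95 at 1 h (edgeR adjusted p = 1.58e-10) and 6.35 at 6 h (edgeR adjusted p = 5.73e-17). IME1 tags held 658 and 553 CPM at 0 h, 882 and 974 at 1 h, 1588 and 876 at 2 h and 786 and 783 at 5 h. IME1 passed the tag test at 2 h alone among the hours, with a log2 fold change of 1.01 (SE 0.32, edgeR adjusted p = 0.0138), and its RNA-seq fall by 9 h had no counterpart in the tags, which held 1021 and 934 CPM (log2 0.70, edgeR adjusted p = 0.0858). UME6 gave 0 tags in both 0 h libraries and at most 22 in any library of the time course, and RME1, with 0 to 10 tags, did not pass the filter on low counts. At 1 h 3 of the 5 regulators tested had risen in tags (IME2, RIM15 and UME6), against 25.6% of all genes that changed. At 5 h IME2 was the 1 called, against 37.8%, and over all hours 3 passed (IME1, IME2 and UME6), against 64%.

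Return to YPD after 1 h in SPO emptied the IME1, IME2 and RIM11 transcripts within minutes. IME1 stood at 871 and 642 CPM before transfer, 61.6 and 59.9 after 5 min and 2.77 and 2.81 after 20 min. The 3 pairs of libraries were far apart, and the log2 fold change was -3.64 at 5 min (SE 0.18, edgeR adjusted p = 3.69e-25) and -8.04 at 20 min (SE 0.26, edgeR adjusted p = 3.45e-34), the latter from 15 reads in all at 20 min. IME2 stood at 901 and 719 CPM, then 83.7 and 113, then 9.98 and 11.0, with log2 fold changes of -3.04 at 5 min (edgeR adjusted p = 3.82e-22) and -6.25 at 20 min (SE 0.22, edgeR adjusted p = 3.01e-32). RIM11 stood at 227 and 247 CPM, then 39.5 and 51.6, then 3.33 and 5.90, with log2 fold changes of -2.36 (edgeR adjusted p = 8.44e-18) and -5.54 (edgeR adjusted p = 3.26e-29). For none of these 3 genes did libraries of different time points overlap.

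UME6 and RIM15 kept much more of their RNA. UME6 stood at 167 and 141 CPM before transfer, 91.4 and 81.0 at 5 min and 79.8 and 87.6 at 20 min. It fell by 0.85 on the log2 scale by 5 min (edgeR adjusted p = 1.27e-05), and the further step to 20 min was -0.03 and did not pass the test (edgeR adjusted p = 0.884). With library sizes alone that step was -0.76 and passed (edgeR adjusted p = 0.000107). RIM15 stood at 113 and 97.4 CPM, then 121 and 158, then 44.3 and 42.4. Its value at 5 min was 0.41 higher on the log2 scale and passed the test (edgeR adjusted p = 0.0268), but was 0.18 without replicate 2 at 5 min (edgeR adjusted p = 0.438) and 0.32 without replicate 2 before transfer (edgeR adjusted p = 0.145). It was below its starting level by 20 min, at a log2 fold change of -1.29 (edgeR adjusted p = 7.17e-09). The median gene moved at 5 min as well, at a log2 fold change of -0.43 with TMM and -0.26 with RLE scaling, so that relative to the median gene UME6 was lower by less, and RIM15 higher by more, than these values. At 20 min the median was -0.10 with TMM and -0.77 with library sizes alone.

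RME1 fell as well. It stood at 18.3 and 23.9 CPM before transfer, from 32 and 28 counts, at 3.46 and 4.44 CPM after 5 min, and at 0 in both libraries after 20 min. The log2 fold change at 5 min was -2.34 (SE 0.44, edgeR adjusted p = 4.9e-06). At 20 min RME1 was at least 36.8-fold lower than before transfer, taking as floor 3 counts over the 2 libraries together. At 5 min 5 of the 6 regulators had fallen, against 46.7% of all genes, and 1 had risen, against 27.4%. At 20 min all 6 had fallen, against 42.8% of all genes, and from 5 to 20 min 5 fell, against 27%.

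**Figure D2:**
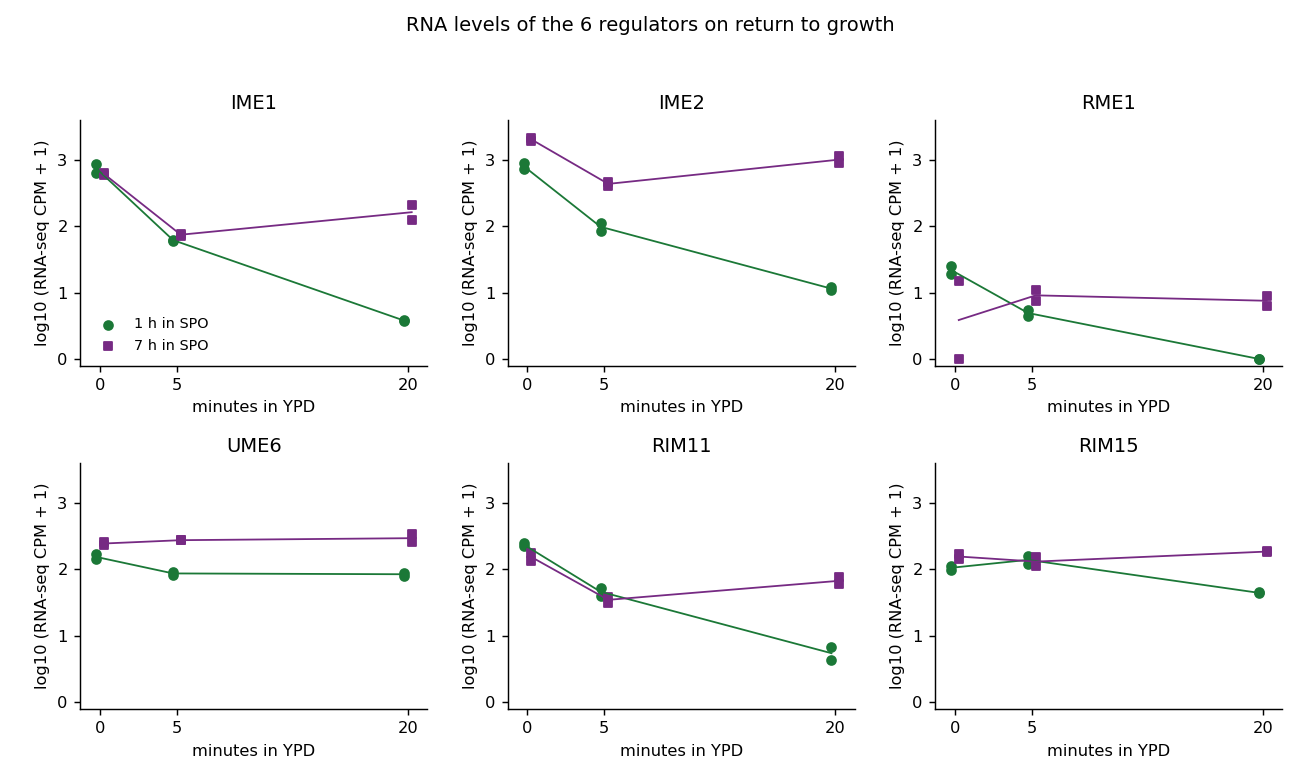
RNA-seq level, as log10 of CPM + 1, of the 6 regulators against minutes in YPD, for cells taken after 1 h (circles) or 7 h (squares) in SPO. Points are libraries and lines join the means of 2. After 1 h in SPO, IME1, IME2 and RIM11 run down to 20 min, and after 7 h they turn up again between 5 and 20 min.

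Cells taken after 7 h in SPO started from another balance. Against 1 h, before transfer, IME2 was higher by 1.32 on the log2 scale (edgeR adjusted p = 4.4e-10), UME6 by 0.71 (edgeR adjusted p = 0.000539) and RIM15 by 0.50 (edgeR adjusted p = 0.0292), and RIM11 was lower, at -0.74 (edgeR adjusted p = 0.000665). These 4 of 6 compare with 62% of all genes. One call, that of IME2, was left without replicate 1 of the 7 h cells, which leaves the library of 132594 counts alone, and UME6 and RIM15 were not past the threshold with library sizes alone. IME1, at 637 and 596 CPM after 7 h against 871 and 642 after 1 h, did not pass the test. It passed as lower with library sizes alone (-0.66, edgeR adjusted p = 0.000459), as did RME1 (-1.15, edgeR adjusted p = 0.0272), and without replicate 2 of the 1 h cells (-0.48, edgeR adjusted p = 0.0168).

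After transfer at 7 h the same 3 transcripts fell, and then rose again. IME1 went from 637 and 596 CPM to 70.9 and 76.1 at 5 min and back to 210 and 125 at 20 min. Its log2 fold change was -3.07 at 5 min (edgeR adjusted p = 1.9e-19), and from 5 to 20 min it rose by 1.27 (SE 0.21, edgeR adjusted p = 2.57e-06), with no overlap between the pairs. IME2 went from 1952 and 2121 CPM to 463 and 405 and back to 1144 and 888, with -2.23 at 5 min (edgeR adjusted p = 8.43e-17) and a rise of 1.24 from 5 to 20 min (SE 0.17, edgeR adjusted p = 1.82e-08). RIM11 went from 134 and 175 CPM to 30.4 and 37.6 and back to 75.6 and 58.3, with -2.03 (edgeR adjusted p = 4.55e-10) and then a rise of 1.02 (SE 0.26, edgeR adjusted p = 0.00162). At 20 min all 3 were still below their level before transfer, by -1.81, -0.98 and -1.01 on the log2 scale.

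The other 3 regulators did not pass a test at either time after transfer at 7 h. UME6 libraries lay between 230 and 339 CPM and RIM15 libraries between 110 and 188 over the 3 time points, with overlap between them. RME1 was at 13.9 and 0 CPM before transfer, 10.1 and 6.42 at 5 min and 8.0 and 5.30 at 20 min, from at most 14 counts per library. At 5 min 3 of 6 regulators had fallen, against 23.2% of all genes, and at 20 min 3 had fallen, against 11.3%. From 5 to 20 min 3 rose, against 16.1% of all genes. Without replicate 1 of the 20 min cells that rise held for IME2 alone, with IME1 at 0.75 (edgeR adjusted p = 0.0743) and RIM11 at 0.74 (edgeR adjusted p = 0.215).

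The responses at 1 h and 7 h were compared directly. The difference of the 20 min responses, 7 h less 1 h on the log2 scale, was 6.23 for IME1 (SE 0.35, edgeR adjusted p = 1.69e-22), 5.26 for IME2 (SE 0.28, edgeR adjusted p = 1.79e-23) and 4.53 for RIM11 (edgeR adjusted p = 9.62e-17). It was 1.59 for RIM15 and 1.07 for UME6, so that with RME1 all 6 differences were positive and passed, against 32.5% of all genes. The fitted value of RME1, 7.05, rests on libraries at 0 counts and depends on the prior count. At 5 min the difference passed the test for UME6 (0.97) and IME2 (0.81), against 24.7% of all genes higher, and for IME1 and RIM11 it did not.

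The early meiotic genes showed the same pair of patterns. After 1 h in SPO, 19 of 19 tested had fallen by 20 min (median log2 fold change -4.68, against -0.10 over all genes), DMC1, the meiotic recombinase gene, from 984 to 3.62 CPM and MEK1, a meiotic checkpoint kinase gene, from 197 to 1.40. After 7 h, 17 of 19 had fallen by 20 min, with a median of -1.35. Their summed level went from between 3040 and 3364 CPM to between 470 and 555 at 5 min and between 1268 and 1446 at 20 min. HOP1 was at -1.96 and MEI4 at -2.55.

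Other pathway genes moved sharply after 1 h in SPO. TPK2, which encodes a catalytic subunit of protein kinase A, fell from 208 to 2.37 CPM by 20 min. It was among 9 of 17 Ras and protein kinase A genes that fell, while 4 rose. In the Rim101 pathway 7 of 8 fell (RIM8 by 1.80 and RIM20 by 1.75 on the log2 scale) and 0 rose. Of the partner kinases and substrates 6 of 12 fell, IGO2 by 4.00 and MRK1, a second kinase of the Rim11 family, by 3.75, and 3 rose.

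Among corepressors, TUP1 rose by 2.10 and ASH1 fell by 1.83, in a list of which 4 of 14 rose and 6 fell. Haploid-specific genes had 2 of 12 higher and 7 lower, with FUS3 down at a log2 fold change of -4.25. After 7 h the counts at 20 min were smaller: 5 Ras and protein kinase A genes rose (PDE2 by 1.85) and 2 fell, 0 Rim101 genes changed, 2 corepressor genes fell (SIN3 and CYC8), 3 partner kinases fell (MRK1 by 1.29 and IGO2 by 1.04) and 1 haploid-specific gene fell (AXL1). Whether these lists differ between 1 h and 7 h was not tested.

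In poly(A) tags IME1, IME2 and RIM11 fell as well, whereas RIM15 at 5 min and UME6 at 20 min differed from RNA-seq. IME1 tags went from 240 and 209 CPM to 41.6 and 71.6 at 5 min and to 1.18 and 0 at 20 min after 1 h in SPO. The log2 fold change was -1.97 at 5 min (SE 0.39, edgeR adjusted p = 0.000191), and 20 min rested on 1 tag in all. IME2 tags fell by 1.30 on the log2 scale at 5 min and by 5.05 at 20 min, and RIM11 tags by 1.21 and 3.71. UME6 tags at 20 min were at -0.06 (edgeR adjusted p = 0.956), from at most 12 tags per library. In RNA-seq UME6 was then at -0.88 (edgeR adjusted p = 2.47e-06). RIM15 at 5 min was higher in RNA-seq, by 0.41. RIM15 tags fell at 5 min, by 1.35 (edgeR adjusted p = 0.015), but the value was -0.58 without replicate 2 before transfer (edgeR adjusted p = 0.487), -1.16 without replicate 1 at 5 min (edgeR adjusted p = 0.145) and -1.10 with library sizes alone (edgeR adjusted p = 0.0626). After 7 h, IME1 tags fell by 1.84 at 5 min (edgeR adjusted p = 0.000354) and rose by 1.52 from 5 to 20 min (edgeR adjusted p = 0.00646). After 1 h, 4 of 6 had changed in tags at 5 min, against 20.2% of all genes, and 5 at 20 min, against 54.2%. The 4 became 1 without replicate 1 at 5 min and 2 without replicate 2 before transfer. After 7 h, 3 had changed at 5 min, against 24.5%, and 0 at 20 min, against 7.57%.

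Tail lengths are means per gene and library, in nucleotides (nt), read where a gene had at least 20 tags. In the sporulation time course replicate 2 had the longer all-gene median at 10 of 10 hours, so values are given by library. IME1 tails averaged 17.3 and 25.2 nt at 0 h, 22.5 and 27.5 at 1 h, 29.8 and 31.1 at 5 h, 16.9 and 20.9 at 7 h and 14.1 and 18.2 at 9 h. The 5 h libraries lay above all of the others named here. They did not stand clear of 6 h, where the mean was 25.8 nt with an SD of 6.16 nt. The difference between 5 h and 0 h was 9.25 nt (SE 3.31) and did not pass the test without a replicate block (limma adjusted p = 0.0705). With that block it passed (limma adjusted p = 0.00249).

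IME2 tails averaged 22.8 and 27.3 nt at 1 h, 25.9 and 28.5 at 5 h, 25.5 and 29.0 at 6 h, 20.9 and 21.4 at 7 h and 20.9 and 23.1 at 9 h, and at 0 h a library fell short of 20 tags. The step from 6 to 7 h, when IME2 RNA also turned down, was -6.03 nt (SE 2.22). Its limma adjusted p was 0.0677 without a replicate block and 0.00199 with it. At that step 0 of 2 regulators were called without the block, against 15% of genes, and both were called with it. Without replicate 1 of 6 h the differences of IME1 and IME2 were -11.2 and -7.78 nt. RIM11 tails averaged 13.7 and 19.7 nt at 0 h, 23.5 and 30.4 at 1 h and 28.2 and 29.0 at 5 h. They lengthened by 10.2 nt at 1 h (SE 3.10, limma adjusted p = 0.0490) and by 11.9 nt at 5 h (SE 2.97, limma adjusted p = 0.0308), with no overlap with 0 h. The all-gene median was 17.4 and 20.4 nt at 0 h, 22.6 and 25.0 at 1 h, 22.2 and 25.4 at 5 h and 18.0 and 19.2 at 7 h. RIM11 was thus 1 of 2 regulators called at 1 h, against 10.8% of genes, and 1 of 2 at 5 h, against 9.66%. With each library centred on its median the 1 h difference of RIM11 was 5.54 nt and no longer passed (limma adjusted p = 0.274), and without replicate 1 of 0 h its limma adjusted p was 0.457 at 1 h and 0.331 at 5 h. It was 0.378 without replicate 2 of 1 h, and 0.0657 and 0.186 without replicates 1 and 2 of 5 h.

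**Figure D3:**
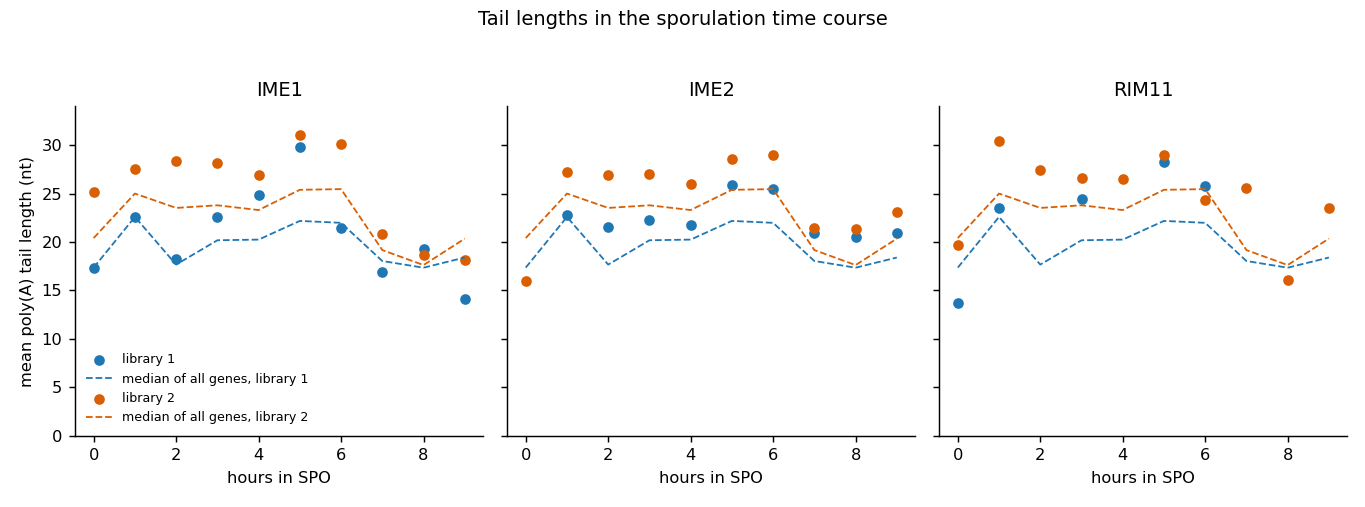
Mean poly(A) tail length (nt) of IME1, IME2 and RIM11 against hours in SPO, with points for each library that had at least 20 tags and dashed lines for the median of all genes in each library. IME1 points reach 29.8 and 31.1 nt at 5 h, above the medians of 22.2 and 25.4 nt.

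On return to growth the tails of IME2 shortened, while the all-gene medians at 5 min lay on either side of those before transfer. After 1 h in SPO, IME2 tails averaged 27.6 and 28.6 nt before transfer and 21.0 and 19.0 nt after 5 min, a change of -8.14 nt (SE 2.10, limma adjusted p = 0.014). The pairs did not overlap, and the all-gene medians were 24.7 and 25.4 nt before and 27.1 and 24.3 nt after. IME1 averaged 27.4 and 31.2 nt before and 17.7 and 20.6 nt after, a larger difference of -10.2 nt with a larger error (SE 3.52) that did not pass (limma adjusted p = 0.0666). RIM11 went from 26.9 and 24.7 to 21.6 and 20.9 nt, and RIM15 from 20.3 and 21.7 to 27.6 and 27.7 nt, without overlap, and neither passed. IME2 was the 1 of 4 called, against 2.79% of genes that shortened and 13.7% that changed in either direction. Leaving out either library before transfer, or replicate 2 at 5 min, left 0 called. After 7 h in SPO 0 were called, against 0% of all genes at 5 min and 0.43% at 20 min.

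In the mutant series wild-type IME1 was low in growth, highest in premeiotic cells and lower again after 5 h in SPO, while IME2 came up in SPO. Differences between these single libraries had no replicate check, and a difference was counted where it passed 1 log2 unit with a mean of at least 10 counts. Wild-type IME1 gave 5 counts (6.21 CPM) in vegetative, 803 (3057 CPM) in premeiotic and 654 (1541 CPM) in SPO cells. IME2 gave 10 counts (12.4 CPM), 17 (64.7 CPM) and 1567 (3692 CPM). The ratio of premeiotic to vegetative IME1 was 492, with a 95% exact binomial interval of 210 to 1520, and that of IME2 in SPO to premeiotic cells was 57, interval 35.5 to 98.2. These intervals cover counting error only. In the replicated time course IME1 was instead higher at 5 h (1464 and 1639 CPM) than at 0 h (822 and 998 CPM). The experiments were scaled separately, and the cause of this difference was not tested. Each RNA-seq ratio of premeiotic mutant to wild type below rests on the 1 wild-type premeiotic library, of 257493 counts.

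The other regulators moved less in wild type. UME6 gave 82.0, 91.4 and 292 CPM in the 3 stages, RIM11 63.3, 145 and 240, and RIM15 52.2, 171 and 224, and RME1 gave 0, 0 and 8 counts. From vegetative to premeiotic cells 4 of the 5 regulators measured were higher, against 19.9% of genes. From vegetative cells to SPO 5 of 5 were higher, against 29.7%, and from premeiotic cells to SPO 2 of 5, against 28.6%. In the libraries fragmented before ligation, 5 of 5 were higher in SPO than in vegetative wild-type cells, against 32.6% of genes, with 2808 counts against 4 for IME2 and 628 against 2 for IME1.

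Premeiotic IME1 was lower in all 3 mutants than in wild type. It gave 297 counts (536 CPM) in ccr4Δ/Δ, 232 (391 CPM) in pop2Δ/Δ and 21 (37.1 CPM) in xrn1Δ/Δ, against 3057 CPM in wild type. The ratios to wild type were 0.175 (95% interval 0.153 to 0.2), 0.128 (0.11 to 0.148) and 0.0121 (0.00747 to 0.0187). The level in xrn1Δ/Δ was thus the lowest, and its interval lies apart from those of the other mutants. Regulators lower in premeiotic mutant cells numbered 3 of 5 in ccr4Δ/Δ against 16.3% of genes, 2 of 5 in pop2Δ/Δ against 15.4%, and 3 of 5 in xrn1Δ/Δ against 14.6%. RIM15 was among those in ccr4Δ/Δ (79.4 CPM against 171) and xrn1Δ/Δ (67.1 CPM), and 0 were higher in RNA-seq in any of the 3.

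After 5 h in SPO the order of the mutants was another for IME2 than for premeiotic IME1. IME2 gave 10 counts (22.4 CPM) in ccr4Δ/Δ, 45 (140 CPM) in pop2Δ/Δ and 130 (572 CPM) in xrn1Δ/Δ, against 1567 (3692 CPM) in wild type. The ratios were 0.00606 (95% interval 0.0029 to 0.0112), 0.038 (0.0276 to 0.0511) and 0.155 (0.129 to 0.185), none of which overlap. IME1 at that time was much closer to wild type, at 595 CPM in ccr4Δ/Δ (ratio 0.386, interval 0.334 to 0.446), 1066 in pop2Δ/Δ and 787 in xrn1Δ/Δ, the latter 2 within 1 log2 unit of 1541 CPM. In ccr4Δ/Δ, IME1 was therefore at 536 and 595 CPM at these stages while IME2 was at 30.7 and 22.4 CPM. Whether these single libraries stand for their strains was not tested.

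UME6 was split between the mutants in SPO. It was 33.6 CPM in ccr4Δ/Δ (15 counts, ratio 0.115, interval 0.0624 to 0.197) and 96.6 CPM in pop2Δ/Δ, both lower than the 292 CPM of wild type, and 576 CPM in xrn1Δ/Δ (ratio 1.97, interval 1.53 to 2.54), just within 1 log2 unit. RIM11 was within a narrow range of 123 to 128 CPM in the 3 mutants, against 240 in wild type. RIM15 was 65.4 CPM in pop2Δ/Δ, 1.72 log2 units below wild type. In SPO 3 of 5 regulators were lower in ccr4Δ/Δ against 22.5% of genes, 3 of 5 in pop2Δ/Δ against 22%, and 1 of 5 (IME2) in xrn1Δ/Δ against 22.8%. RME1 never exceeded 8 RNA-seq counts in this series, and in vegetative cells 1 regulator passed 1 log2 unit in the 3 mutants, IME1 in ccr4Δ/Δ (21 counts against 5, ratio 2.65, interval 0.973 to 9), against 6.96% of genes higher.

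**Figure D4:**
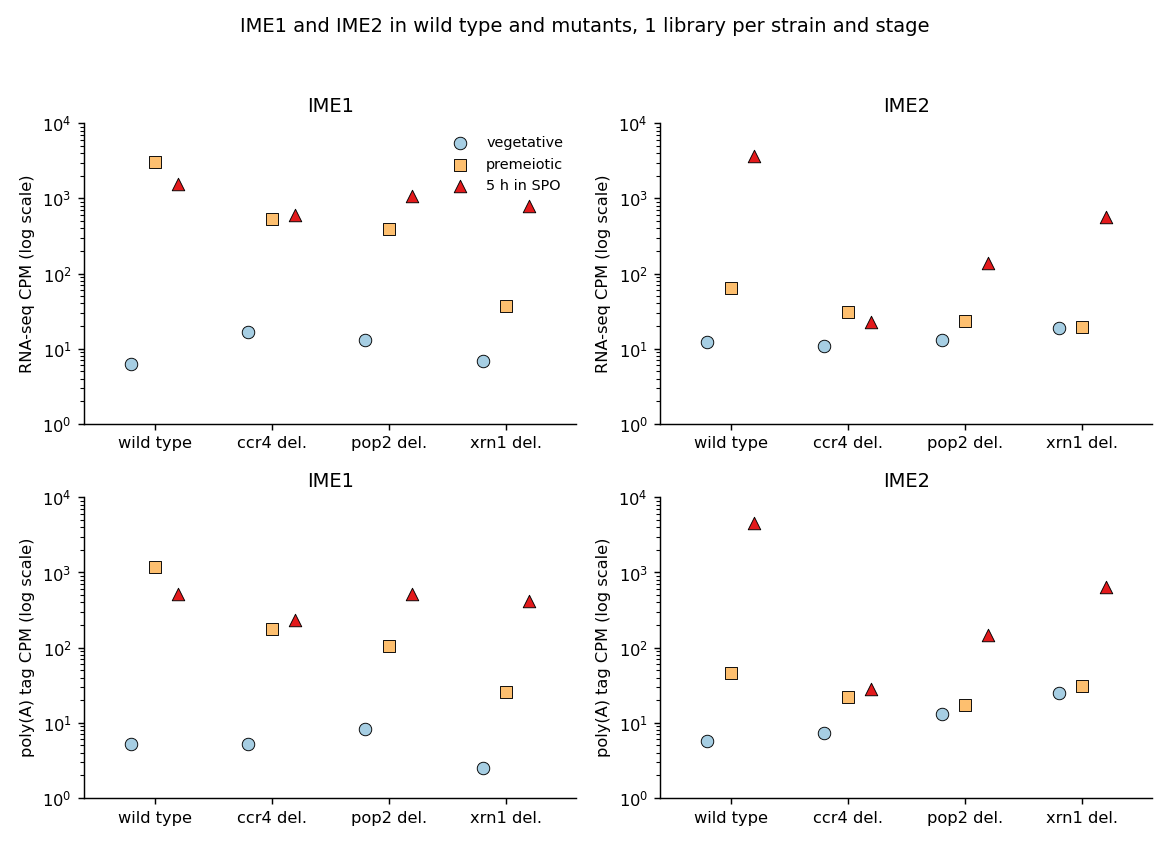
IME1 (left) and IME2 (right) in RNA-seq (top) and poly(A) tags (bottom), in CPM on a log axis, for wild type and the 3 deletions, 1 library per point. Premeiotic IME1 is lowest in xrn1Δ/Δ (37.1 RNA-seq CPM) and IME2 in SPO is lowest in ccr4Δ/Δ (22.4 CPM), in both assays.

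The early meiotic genes gave the same order in SPO as IME2. Their summed level was 8186 CPM in wild type, 275 in ccr4Δ/Δ, 803 in pop2Δ/Δ and 3963 in xrn1Δ/Δ. In vegetative cells it was 54.9, 62.0, 91.1 and 384 CPM. The haploid-specific genes summed to 56.6 CPM in vegetative wild type and 244 in vegetative xrn1Δ/Δ, and to 712 and 354 CPM in SPO. How far the mutant cultures had advanced in meiosis was not measured in these files, and its part in the levels of IME1 and IME2 was not tested.

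Change within a strain from premeiotic cells to SPO differed in size. IME1 went from 391 to 1066 CPM in pop2Δ/Δ and from 37.1 to 787 CPM in xrn1Δ/Δ, 1.44 and 4.29 log2 units, whereas in wild type it was lower in SPO by 0.99. IME2 was lower by 0.40 in ccr4Δ/Δ and higher by 4.66 in xrn1Δ/Δ and 5.76 in wild type. UME6 was lower by 1.23 in ccr4Δ/Δ and higher by 1.76 in xrn1Δ/Δ. In ccr4Δ/Δ 1 of 5 regulators was lower, against 10.2% of genes, in pop2Δ/Δ 2 of 5 were higher, against 11.4%, and in xrn1Δ/Δ 3 of 5 were higher, against 11.5%.

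Poly(A) tags, counted in other libraries of the same strains and stages, were likewise lower than in wild type for premeiotic IME1 and for IME2 in SPO. Premeiotic IME1 had 2257 tags (1194 CPM) in wild type, 779 (178 CPM) in ccr4Δ/Δ, 482 (104 CPM) in pop2Δ/Δ and 232 (25.5 CPM) in xrn1Δ/Δ. In SPO IME2 had 9821 tags (4531 CPM), 115 (28.4 CPM), 309 (146 CPM) and 4853 (633 CPM). Vegetative xrn1Δ/Δ cells held 168 IME2 tags against 21 in wild type, a ratio of 4.33 (95% interval 2.74 to 7.17). IME2 was the 1 of 6 regulators higher there, against 15.4% of genes, and in RNA-seq the counts were 14 against 10. The size of this ratio depends on the scaling. TMM scaled the wild-type library from 8926553 to 3689930 tags and the xrn1Δ/Δ library from 6027501 to 6821450. With library sizes alone the ratio would be larger, and no other scaling was tried on tag ratios of single libraries. In ccr4Δ/Δ 2 of 6 regulators were lower in tags in premeiotic cells, against 16.9% of genes, and 2 of 5 in SPO, against 21.6%. RME1 tags were higher in premeiotic cells of all 3 mutants, at 24, 44 and 49 tags in ccr4Δ/Δ, pop2Δ/Δ and xrn1Δ/Δ against 4 in wild type. The ratios were 2.58 (95% interval 0.888 to 10.2), 4.48 (1.63 to 17.2) and 2.55 (0.934 to 9.72), so that the interval lies above 1 in pop2Δ/Δ alone. UME6 was higher in premeiotic xrn1Δ/Δ, with 133 tags against 7 (ratio 3.95, interval 1.87 to 10). Regulators higher in premeiotic tags thus numbered 1 of 6 in ccr4Δ/Δ against 16.9% of genes, 1 of 6 in pop2Δ/Δ against 17.7%, and 2 of 6 in xrn1Δ/Δ against 19.9%.

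IME1 tails were long in premeiotic cells of the deadenylase mutants. In wild type they averaged 30.5 nt in premeiotic and 45.6 nt in SPO cells, and in ccr4Δ/Δ 55.5 and 45.1 nt, in pop2Δ/Δ 56.2 and 45.1 nt and in xrn1Δ/Δ 22.7 and 25.6 nt. Premeiotic IME1 tails were longer than in wild type by 25.0 nt in ccr4Δ/Δ and by 25.7 nt in pop2Δ/Δ, where the median gene was longer by 8.71 and by 5.66 nt. After 5 h in SPO IME1 tails in wild type, ccr4Δ/Δ and pop2Δ/Δ lay within 45.1 to 45.6 nt. In wild type IME1 tails were longer in the SPO library than in the premeiotic library by 15.1 nt, against 3.26 nt for the median gene. These stages had no replicate libraries, so an effect of stage cannot be told apart from a difference between libraries.

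IME2 tails in SPO lay close together, at 41.2 nt in wild type, 40.9 in ccr4Δ/Δ and 42.2 in pop2Δ/Δ, although IME2 levels there spanned 3692 to 22.4 CPM. In xrn1Δ/Δ IME2 tails were 22.3 nt. Wild-type IME2 tails were 56.3 nt in vegetative cells, from 21 tags, and 49.9 nt in premeiotic cells, from 87 tags. RIM11 tails were 39.8, 30.8 and 33.8 nt in the 3 wild-type stages and 22.6, 18.3 and 20.0 nt in xrn1Δ/Δ, and those of RIM15 were 36.7, 31.2 and 39.2 nt and 22.1, 15.1 and 20.4 nt.

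Short tails in xrn1Δ/Δ were shared with the whole library. The median gene there had 23.2, 19.4 and 18.6 nt in the 3 stages, against 37.8, 33.3 and 36.7 nt in wild type. With differences past 10 nt counted, 5 of 5 regulators were shorter in SPO, against 90.9% of genes, and 3 of 4 in premeiotic cells, against 74%. In premeiotic ccr4Δ/Δ 2 of 4 (IME1 and RIM15) were longer, against 41.7% of genes, and in pop2Δ/Δ 2 of 4, against 28%. IME2 tails were shorter than in wild type in those libraries, with differences of -6.23 nt in ccr4Δ/Δ and -6.38 nt in pop2Δ/Δ. In vegetative cells the differences were -11.15 and -14.8 nt, against a wild-type value from 21 tags. In SPO, 0 of 5 passed 10 nt in ccr4Δ/Δ or in pop2Δ/Δ, against 7.79% and 6.43% of genes longer. Wild type had 1 of 4 longer in SPO than in premeiotic cells (IME1), against 13.6%.

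**Figure D5:**
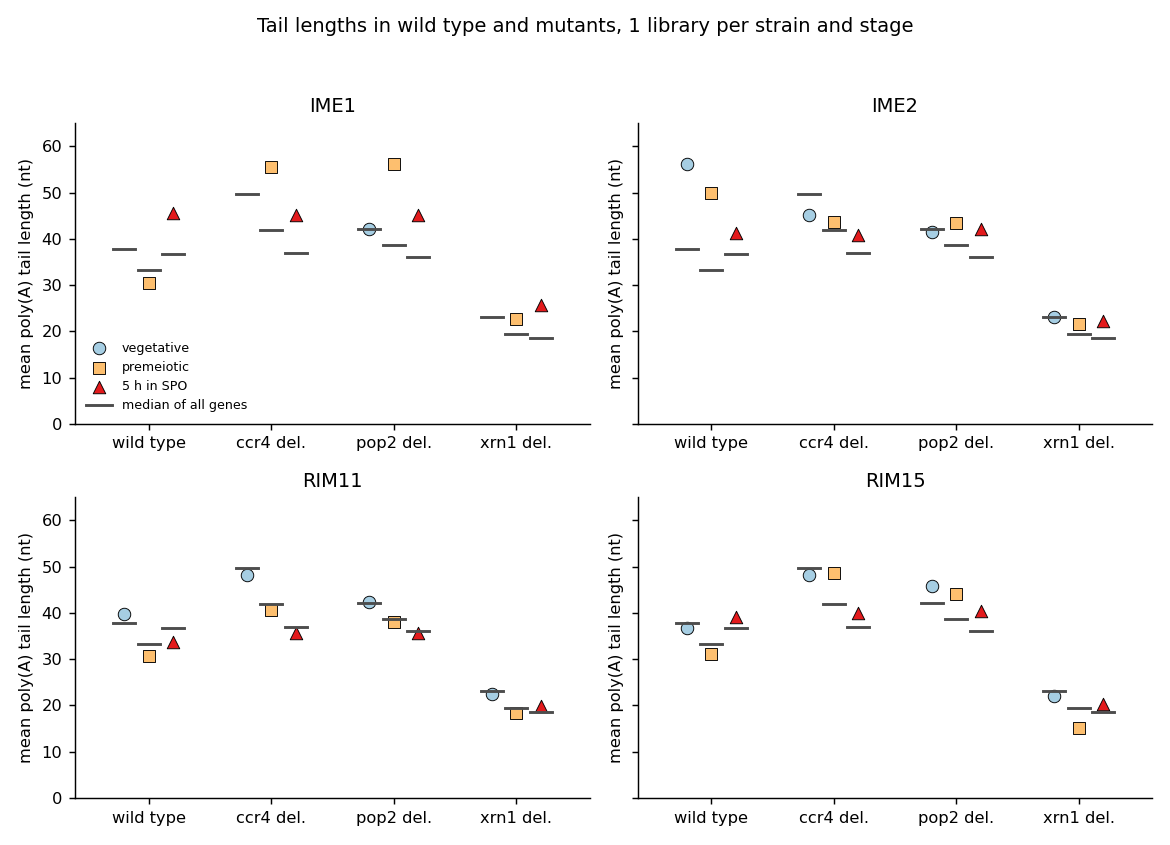
Mean poly(A) tail length (nt, axis from 0) of IME1, IME2, RIM11 and RIM15 by strain and stage, 1 library per point with at least 20 tags, and bars for the median of all genes in the same library. Premeiotic IME1 lies at 55.5 nt in ccr4Δ/Δ and 56.2 nt in pop2Δ/Δ against medians of 42.0 and 38.6 nt, and at 30.5 nt in wild type against 33.3 nt.

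UME6 tails could be read in few libraries and were mostly short. In xrn1Δ/Δ they averaged 8.38 nt in vegetative (24 tags), 7.44 nt in premeiotic (133 tags) and 6.90 nt in SPO cells (81 tags), in libraries whose median was 18.6 nt or more. RME1 tails in xrn1Δ/Δ were 16.8 nt in premeiotic and 21.8 nt in SPO cells. Premeiotic ccr4Δ/Δ cells gave 35.5 nt for UME6, from 23 tags. Wild-type cells of this series gave 7 tags in premeiotic and 11 in SPO cells, too few for a tail value. In the wild-type libraries of the first 2 experiments UME6 reached 20 tags in 1 library at 4 h (10.1 nt, 22 tags) and in 1 library at 7 h before transfer (9.52 nt, 23 tags).

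The vegetative strains with acute changes of Xrn1 or Ccr4 hold meiotic regulators at their low growth level. In the degron-Xrn1 strain IME1 gave 3 counts in the wild-type control, 4 at 0 min and 23 at 30 min, or 2.53, 3.16 and 4.29 CPM. IME2 gave 9, 5 and 72 counts (7.60, 3.95 and 13.4 CPM), and its ratio of 30 min to 0 min was 3.4 (95% interval 1.39 to 10.8). It was the 1 of 5 regulators higher, against 10% of genes. UME6 (58.5 and 63.2 CPM), RIM11 (37.1 and 53.5 CPM) and RIM15 (55.3 and 59.8 CPM) stayed within 1 log2 unit between 0 and 30 min. A degron acts on the protein, so the XRN1 RNA level does not check it. Before induction the strain already differed from its wild-type control at XRN1, with 128 against 230 RNA-seq CPM and 4.69 against 113.5 tag CPM. The part of that difference in the values of the regulators was not tested.

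Tags in that strain gave 2 of 6 regulators higher at 30 min, against 10.6% of genes. They were IME2 (97 against 9 tags, ratio 5.4, interval 2.73 to 12.2) and RIM11 (418 against 98, ratio 2.14, interval 1.71 to 2.69). TMM scaled the 30 min library from 5051943 to 7196550 tags and the 0 min library from 3996220 to 3604270, and no other scaling was tried. RIM11 tails were 36.3 nt in the control, 35.5 nt at 0 min and 22.7 nt at 30 min, and RIM15 tails 45.2, 35.0 and 27.6 nt. The median gene had 39.7, 38.2 and 26.1 nt. Of the 2 regulators measured RIM11 was past 10 nt, as were 61% of genes, and the median gene was itself shorter.

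In the pCup1-Ccr4 strain CCR4 RNA was 141 CPM in the wild-type control, 105 at 0 min and 490 at 60 min. IME1 gave 9, 12 and 5 counts in those libraries and IME2 9, 6 and 15. The ratio of 60 to 0 min for IME2 was 2.45, with an interval of 0.899 to 7.71 that includes no change, and it was the 1 of 4 regulators past 1 log2 unit higher, against 1.2% of genes. UME6 gave 101, 93 and 132 counts, RIM11 99, 78 and 81, and RIM15 97, 87 and 132. RIM11 tails were 29.3, 22.0 and 25.4 nt and the median gene had 28.6, 26.0 and 22.0 nt, and 0 of 2 regulators passed 10 nt between 0 and 60 min, against 6.33% of genes shorter.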

How the data were processed

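The authors deposited raw read counts per gene for the RNA-seq libraries and poly(A) tag counts per gene as whole numbers. They also deposited the mean tail length of each gene and library, in nucleotides, a score not scaled between libraries. The submitters' processing notes name STAR 2.5.3a, bedtools 2.26.0, edgeR and sacCer3. The sources used here do not say how strand and duplicate reads were treated. A deposited 3′ bias table was not used.

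Counts were tested with edgeR 4.0.16 in R 4.3.3 (quasi-likelihood, TMM, filterByExpr), in 1 model of group means per experiment and assay. Tails were tested with limma 3.58.1 on nt, with at least 20 tags behind a value. Benjamini-Hochberg adjusted p under 0.05 over all genes counted as changed. Pairs of single libraries used log2 ratios with a prior count of 2, a mean of at least 10 counts, and 1 log2 unit or 10 nt. The tests were tried on simulated data. Of the 6692 genes, 6008 matched the reference table, and sequences came from the R64 reference genome.

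The members, the gene lists and the rule for naming list genes (up to 2 with the largest change among those that passed) were chosen with earlier results of these data known. A gene that this rule named is not reported here. Alternatives were other scalings, no filter, DESeq2 1.42.0, a replicate block, other tag or count minimums, centring, and leaving out each library.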

Additional observations from a re-analysis of the deposited data

Results flagged for a closer look

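After return to YPD, the responses of cells taken after 7 h and after 1 h in SPO differed by a direct test of the difference (edgeR quasi-likelihood test, adjusted over all genes). At 20 min the difference, 7 h less 1 h on the log2 scale, was 6.23 for IME1, 5.26 for IME2, 4.53 for RIM11, 1.59 for RIM15 (edgeR adjusted p = 1.34e-06) and 1.07 for UME6 (edgeR adjusted p = 0.000126). The 7.05 fitted for RME1 is no measure of size, since it rests on 0 counts in both 20 min libraries after 1 h. At 5 min it was 0.97 for UME6 (edgeR adjusted p = 0.00106) and 0.81 for IME2 (edgeR adjusted p = 0.00495). All 8 values, which are those that passed the test, are positive. Of the 5 min differences that did not pass, those of IME1, RIM11 and RME1 were positive and that of RIM15 was -0.56 (edgeR adjusted p = 0.0893). The median gene had a 20 min difference of 0.11 with TMM, 0.00 with RLE and 0.75 with library sizes alone, and the value of UME6 is the nearest to that shift. With RLE scaling the 5 min difference of IME2 was 0.51 and did not pass (edgeR adjusted p = 0.0879), whereas that of RIM15, -0.86, did (edgeR adjusted p = 0.0077). Replicate 2 of the 7 h cells before transfer, with 132594 counts, enters each of these differences, and its part in them was not tested beyond leaving it out, which kept all 6 calls at 20 min.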

How the results depend on the processing

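In RNA-seq, RLE scaling and no filter left the number of regulators called within 1.5 times the reported number in each comparison tried. Those were 1, 5 and 9 h against 0 h, the test over all hours and the return to growth. A prior count of 0.5 did so for pairs of single RNA-seq libraries. These settings were not tried on tags. The RNA-seq counts at 6 h against 0 h, from 1 to 2 h and from 6 to 7 h were not rechecked. With DESeq2, 2 regulators differed between 7 h and 1 h before transfer (edgeR 4) and 0 in the 5 min difference (edgeR 2). The replicate numbers were not taken to pair the samples in the reported tests. That choice rested on whether same-numbered pairs of groups had deviations correlated over genes above 0.1. In the time course 22 of 45 pairs did in RNA-seq, 36 of 45 in tags and 19 of 45 in tails. In the return to growth 0, 1 and 0 of 15 did. A correlation over genes cannot see a shift common to all genes, such as the longer replicate 2 tail medians at 10 of 10 hours. It therefore does not settle whether the time-course libraries are paired, and the tail calls there depend on the block. With the replicate block, RNA-seq and tag counts of called regulators stayed within 1.5 times, and tail calls became 2 at 5 h against 0 h (from 1), 2 from 6 to 7 h (from 0) and 1 over all hours (from 0). With that block IME1 tails passed at 5 h (9.25 nt, limma adjusted p = 0.00249), from 6 to 7 h (0.0187) and over all hours (0.000821), and IME2 tails from 6 to 7 h (0.00199). Tail calls against 0 h went from 1 to 0 at 1 h with a minimum of 10 or 50 tags or after centring, and from 1 to 0 at 5 h with a minimum of 10 tags. From 6 to 7 h 1 was called with a minimum of 50 tags, and over all hours 1 after centring. Tail calls 5 min after transfer at 1 h were 0 with a minimum of 10 tags and 3 after centring (reported 1), and tag calls there were 2 with library sizes alone (reported 4). Leaving out 1 library gave 1 to 4 for those tag calls, 1 to 2 for tags at 7 h against 1 h, and for tails 0 to 1 at 1 h, 0 to 2 at 5 h, 0 to 2 from 6 to 7 h, 0 to 2 over all hours and 0 to 1 on transfer. For RNA-seq it gave 3 to 5 at 5 h, 2 to 4 at 9 h, 1 to 4 at 7 h against 1 h before transfer and 1 to 4 from 5 to 20 min after 7 h. The cause of these changes was not tested.

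Among single RNA-seq libraries, a mean of at least 50 counts gave 0 called in vegetative ccr4Δ/Δ, 1 in each premeiotic mutant and in wild-type premeiotic against vegetative cells, 0 and 1 for SPO against premeiotic ccr4Δ/Δ and pop2Δ/Δ, and 0 in the degron and pCup1-Ccr4 strains, since fewer genes are then measured. Library sizes alone gave 3 in vegetative xrn1Δ/Δ, 2 in SPO xrn1Δ/Δ and 2 in pCup1-Ccr4. For tails, a minimum of 50 tags gave 1 in vegetative ccr4Δ/Δ, 0 in vegetative pop2Δ/Δ, 0 for wild-type SPO against vegetative cells, 1 for ccr4Δ/Δ SPO against premeiotic cells and 0 for the degron strain at 0 min against its control. After subtraction of the median difference of all genes, 1 was called in vegetative ccr4Δ/Δ, vegetative xrn1Δ/Δ and premeiotic xrn1Δ/Δ, 2 for wild-type SPO against premeiotic cells, and 0 in SPO xrn1Δ/Δ, in ccr4Δ/Δ and pop2Δ/Δ SPO against premeiotic cells and in both degron comparisons. That subtraction turned 4 shortenings in xrn1Δ/Δ into lengthenings, of 0.036 nt for RIM15 in vegetative cells, 1.03 nt for RIM11 in premeiotic cells, and 5.24 nt for RME1 and 3.74 nt for RIM11 in SPO. Depth limits RME1 in each assay, UME6 in tags, and the growth-phase values of IME1 and IME2.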

Other observations

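UME6 was counted far less in poly(A) tags than in RNA-seq, a feature singled out after its values were seen. Averaged over the sporulation time course it had 247 RNA-seq CPM and 34.4 tag CPM, a log2 ratio of tags to RNA-seq of -2.80 (pseudocount 1), at percentile 6.31 of 5864 genes whose median was -0.60. In the mutant series the means were 141 and 4.59 CPM, a log2 ratio of -4.67, at percentile 2.47 of 5905 genes. IME2 lay at the other end, at 0.84 and percentile 90.7 in the time course and at percentile 78.7 in the mutant series. RIM11 lay at percentiles 65.2 and 46.5 and IME1 at 44.5 and 21.3. Where UME6 reached 20 tags its tails were 6.90 to 10.1 nt in 5 libraries and 35.5 nt in premeiotic ccr4Δ/Δ cells.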
